A study of Mus musculus with 2 samples.

Results

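In mouse embryonic fibroblasts (MEFs) homozygous for a hypomorphic allele of Dnmt1, most methylated sequence lost methylation, but 2807 stretches of 1 kb kept a median methylation of 65% or more. These retaining tiles were chosen by cutting the autosomes into fixed 1 kb tiles and keeping tiles with 8 to 19 measured CpGs, a median of at least 80% in Dnmt1+/+ and a median of at least 65% in Dnmt1-/-. Of 347615 tiles with a measured CpG, 31097 were autosomal with 8 to 19 CpGs, and 19633 of these passed the Dnmt1+/+ limit (the eligible tiles). The retaining tiles were 14.3% of the eligible tiles, which is the share fixed by the limit itself.

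The study profiled DNA methylation, histone marks and expression in cells with severely reduced DNA methylation. Its bisulfite libraries came from Dnmt1+/+ MEFs and from Dnmt1-/- MEFs carrying that allele, which reduces Dnmt1 function, and both lines also lacked trp53. Reduced-representation bisulfite sequencing (RRBS) reads DNA fragments released by restriction enzymes after bisulfite has converted unmethylated cytosine, so that methylation is given per CpG as methylated calls over all calls. There was 1 library per genotype, so no difference between the genotypes has a replicate check, and a difference between these lines other than Dnmt1 cannot be told apart from the effect of the allele. All 95% intervals are Wilson intervals on calls or tiles unless stated, and cover counting error only. They treat calls and tiles as independent, although CpGs of the same fragment share reads and neighbouring tiles tend to be alike. They can therefore be too narrow.

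Dnmt1 is the maintenance methyltransferase: it restores methylation on the new strand after replication, and without it methylation is diluted with each division. Dnmt3a and Dnmt3b place methylation de novo, and Dnmt3b is known to be guided to transcribed gene bodies by H3K36me3. Gene bodies are generally methylated in mammals, while CpG island promoters are not.

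Sequence of 6 members is shown so that most of the CpGs behind their selection can be seen. These were taken from the 10 members with the highest Dnmt1-/- methylation: Il4ra, Sh3rf1, Fbxo25 and Upf3a near the top of the order, the most deeply read of the 10 (Ttll11) and the member outside genes. Each is 300 bases of the plus strand of NCBIM37 (mm9), 5′ to 3′, and capitals mark the CpGs measured in both libraries. The windows are an intron of Il4ra, the interleukin-4 receptor alpha chain (chr7:132715521-132715820), an intron of Sh3rf1, a scaffold protein and ubiquitin ligase (chr8:63721690-63721989), an intron of Fbxo25, an F-box protein (chr8:13934030-13934329), a stretch overlapping a coding exon of Upf3a, a factor of nonsense-mediated decay (chr8:13795563-13795862), an intron of Ttll11, a tubulin polyglutamylase (chr2:35698503-35698802), and sequence between genes on chromosome 15 (chr15:38484438-38484737).
Il4ra: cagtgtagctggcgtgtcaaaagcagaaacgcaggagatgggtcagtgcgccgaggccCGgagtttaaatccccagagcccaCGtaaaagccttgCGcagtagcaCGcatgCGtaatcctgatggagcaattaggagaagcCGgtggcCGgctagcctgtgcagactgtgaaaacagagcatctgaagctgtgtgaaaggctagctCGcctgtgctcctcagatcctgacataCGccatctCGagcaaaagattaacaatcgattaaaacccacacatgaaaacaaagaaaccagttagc
Sh3rf1: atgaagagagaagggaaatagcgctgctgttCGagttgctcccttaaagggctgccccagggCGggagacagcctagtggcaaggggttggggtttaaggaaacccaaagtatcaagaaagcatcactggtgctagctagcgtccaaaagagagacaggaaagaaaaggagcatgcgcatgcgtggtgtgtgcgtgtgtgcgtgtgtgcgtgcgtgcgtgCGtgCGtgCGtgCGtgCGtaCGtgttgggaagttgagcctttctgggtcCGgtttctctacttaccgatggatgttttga
Fbxo25: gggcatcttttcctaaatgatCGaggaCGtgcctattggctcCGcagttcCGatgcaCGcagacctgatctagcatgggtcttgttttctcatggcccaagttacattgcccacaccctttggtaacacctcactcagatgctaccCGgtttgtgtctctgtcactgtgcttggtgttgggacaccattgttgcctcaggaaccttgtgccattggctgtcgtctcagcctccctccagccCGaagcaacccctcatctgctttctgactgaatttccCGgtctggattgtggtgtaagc
Upf3a: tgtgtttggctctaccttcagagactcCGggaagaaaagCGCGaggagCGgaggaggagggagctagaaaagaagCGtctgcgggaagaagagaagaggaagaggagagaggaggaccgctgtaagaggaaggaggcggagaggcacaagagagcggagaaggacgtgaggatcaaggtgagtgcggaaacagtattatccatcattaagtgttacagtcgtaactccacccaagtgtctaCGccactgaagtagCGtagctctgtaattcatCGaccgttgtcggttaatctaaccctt
Ttll11: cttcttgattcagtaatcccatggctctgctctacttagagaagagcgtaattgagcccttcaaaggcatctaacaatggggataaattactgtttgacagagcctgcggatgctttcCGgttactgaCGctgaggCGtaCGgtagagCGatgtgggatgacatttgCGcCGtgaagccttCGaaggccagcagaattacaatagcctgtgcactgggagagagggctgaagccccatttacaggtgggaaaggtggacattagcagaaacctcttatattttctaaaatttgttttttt
chr15 intergenic: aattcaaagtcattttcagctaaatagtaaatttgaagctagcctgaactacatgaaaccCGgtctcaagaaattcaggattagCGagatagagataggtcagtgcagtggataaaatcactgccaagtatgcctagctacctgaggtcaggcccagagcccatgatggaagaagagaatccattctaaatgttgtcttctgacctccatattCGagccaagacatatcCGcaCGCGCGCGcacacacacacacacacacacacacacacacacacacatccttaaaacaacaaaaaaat

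In the Ttll11 window the 8 capital CpGs read 92.1%, 87.3%, 93.5%, 95.2%, 95.2%, 88.9%, 71.4% and 92.1% in Dnmt1-/- from left to right, each over 63 to 126 calls, against 94.0% to 100% in Dnmt1+/+. Each measured CpG of this stretch was thus still read as methylated in most calls. In the Il4ra window the 10 CpGs read 72.7%, 86.4%, 95.5%, 100%, 100%, 65.2%, 46.2%, 80.8%, 96.2% and 73.1% in Dnmt1-/-, over 22 to 44 calls each. Its 4 lowest values were the 4 CpGs inside CCGG or TCGA. The Sh3rf1 window rested on 12 calls per CpG in Dnmt1-/-, and the 6 CpGs in and at the end of its TGCG repeat read between 83.3% and 100%. The chromosome 15 window ends its measured part in the repeat CGCGCGCG, whose CpGs read 88.2% to 94.1% over 17 calls each. This window holds 8 of the 9 measured CpGs of its tile, and the CpG outside it read 5.56% in Dnmt1-/-. Repeats were not annotated in the sources used here, and their part in the members was not tested. The letters CGCGCG, which read the same on both strands, stood in the measured stretch of 115 of 2807 retaining tiles (4.10%, 3.42 to 4.90%) and of 392 of 16826 other eligible tiles (2.33%, 2.11 to 2.57%).

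The median retaining tile held 10 measured CpGs (8 to 19) over 367 bp, with 341 calls in Dnmt1+/+ and 354 in Dnmt1-/-. Together the members held 29613 CpGs and 1107299 and 1162144 calls. Calls per CpG were at a median of 33.4 and 34.4, near the 30.9 and 33.1 of the other eligible tiles, which are the 16826 with a Dnmt1-/- median under 65%. By selection the tile medians in Dnmt1-/- lay between 65% and 100%, with quartiles of 68.4%, 72.0% and 77.1%, and 459 members (16.4%) were at 80% or more. The Dnmt1+/+ medians centred on 98.0%. In 1437 of 2807 members (51.2%) the median was lower in Dnmt1-/- by 25 percentage points or more, where 92.7% of all eligible tiles were, a contrast that the limit itself sets. The distribution of Dnmt1-/- medians showed no gap at 65%, since 244 members lay from 65% to under 66% and 215 eligible tiles from 64% to under 65%.

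**Figure D1:**
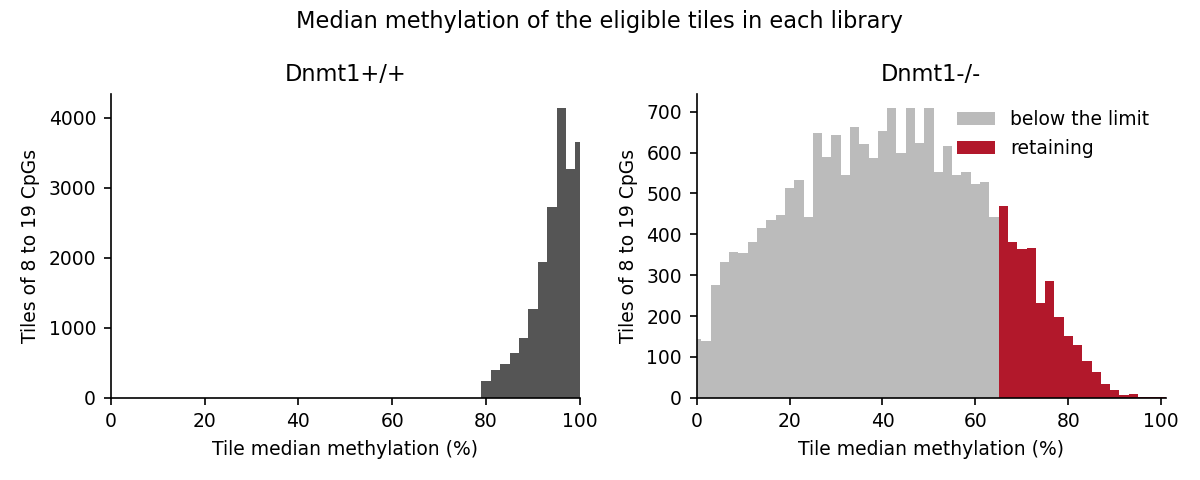
Number of eligible tiles by their median methylation in steps of 2 percentage points in Dnmt1+/+ (left, dark grey) and Dnmt1-/- (right, with the 2807 retaining tiles in red and the rest in light grey). The Dnmt1-/- medians form a broad hump, and the retaining tiles are its upper shoulder from 65% with no separate peak.

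Values next to the limit were much alike. Just inside it, at 65%, were tiles in a coding exon of Rhobtb1 and in introns of 1700028I16Rik and Wipf2, a WASP-interacting protein. Just outside it were tiles in introns of Tbc1d24 and Epb4.1l4a and a tile between genes, at 64.99%, 64.96% and 64.93%. Where the median was set by few CpGs, it could differ from the tile's calls as a whole, and the 1700028I16Rik tile, with 4 of its 8 CpGs in CCGG or TCGA, had a median of 65% while its other CpGs pooled to 29.2% (21.8 to 37.8%).

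The enzymes MspI and TaqI cut at CCGG and TCGA, and 44.4% of all measured CpGs lay in one of them, although the enzymes used for these libraries are not named in the sources used here. Such CpGs read 54.0% in Dnmt1-/- in the 3610 losing tiles (eligible tiles with a Dnmt1-/- median of 20% or less), where the other CpGs read 8.59%. The levels of CpGs in CCGG and TCGA could therefore lie well above those of their neighbours, and levels over the CpGs outside these letters (other CpGs) are given beside the tile medians, which like the limits were taken over all CpGs of a tile. In the members, 10888 CpGs (36.8%) were in CCGG or TCGA, against 38.4% in the other eligible tiles. Their 18725 other CpGs averaged 64.7% in Dnmt1-/-, the CpGs in CCGG 75.5% and those in TCGA 68.2%.

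Pooled over calls, the other CpGs of the members went from 95.7% in Dnmt1+/+ to 65.6% (65.5 to 65.7%) in Dnmt1-/-. The same quantity went from 88.4% to 26.7% in the other eligible tiles and from 82.6% to 11.2% in the losing tiles. Of 2415 members with at least 5 other CpGs, 1654 (68.5%) still had a Dnmt1-/- median of 65% or more over those CpGs alone, and 203 (8.41%) pooled below 50%. The retained methylation was also uneven within tiles. Counting CpGs in CCGG and TCGA too, every measured CpG was above 20% in 1826 members (65.1%) and every measured CpG was at 50% or more in 339 (12.1%). Single other CpGs of the members had quartiles of 50%, 70.2% and 82.5% in Dnmt1-/-, 31.2% of them were at 80% or more and 6.32% at 20% or less.

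The extremes show this spread. Members with the highest level at other CpGs were in Il4ra at 94.0% (89.6 to 96.6%), AW554918 at 93.4% (89.1 to 96.1%), Sh3rf1 at 91.7% (83.8 to 95.9%) and Fbxo25 at 91.2% (85.3 to 94.9%). Upf3a at 90.7%, Klhl2 at 90.6%, Map3k1 at 90.6%, Ttll11 at 90.4% (87.9 to 92.5%), the tile on chromosome 15 at 90.4% and Wwox at 90.1% followed. The intervals of these 10 overlap, so their order is not resolved at this depth. Klhl2 is a kelch adaptor of a ubiquitin ligase, Map3k1 a kinase upstream of JNK and Wwox an oxidoreductase studied as a tumour suppressor. Of the 10, 6 were in introns, 2 in coding exons, 1 within 1 kb of a transcript start and 1 between genes and 5 were on chromosome 8, which held 255 of the 2807 members. At the other end, a tile between genes on chromosome 11 pooled to 29.1% (24.1 to 34.7%) at its other CpGs, an intronic tile of Atp13a4, a P-type ATPase, to 28.2% (21.7 to 35.7%) and an intronic tile of Mtus2 to 26.8% (20.7 to 33.9%). Those members met the limits with 3 to 6 CpGs in CCGG or TCGA.

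Most retaining tiles lay inside genes. Of the members, 2298 (81.9%, 80.4 to 83.2%) overlapped a protein-coding gene, compared with 54.3% of the other eligible tiles and 41.7% of the losing tiles. A coding exon was overlapped by 1445 members (51.5%, 49.6 to 53.3%), 29.3% of the other eligible tiles and 22.9% of the losing tiles. Read the other way, 20.1% of the 11433 eligible tiles inside genes were retaining (19.4 to 20.8%) and 6.21% of the 8200 outside (5.71 to 6.75%), around the 14.3% of all eligible tiles. By position in a fixed order of precedence, the retaining share was 17.6% within 1 kb of a transcript start, 23.6% in coding exons, 19.2% in UTRs without coding sequence, 17.0% in introns, 7.78% in non-coding genes or pseudogenes and 6.12% between genes. The first of these classes takes any annotated protein-coding transcript start, internal ones included. Only 61 members (2.17%, 1.70 to 2.78%) lay within 1 kb of the outermost start of a gene, against 3.77% of the other eligible and 5.32% of the losing tiles.

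**Figure D2:**
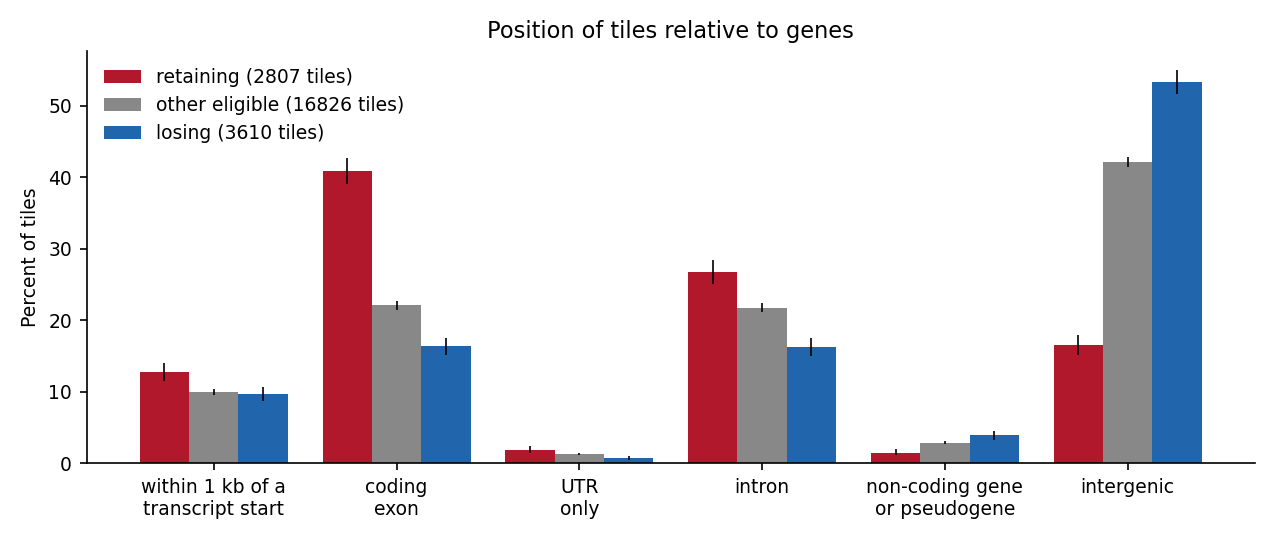
Share of tiles (percent, vertical axis) in each position class for the retaining, other eligible and losing tiles, with 95% Wilson intervals as black lines. Coding exons hold 40.9% of the retaining tiles after tiles near a transcript start are set aside, and sequence between genes holds 53.3% of the losing tiles.

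The difference between tiles inside and outside genes was also present at like starting levels. Among eligible tiles above 95% in Dnmt1+/+, 27.6% of those inside genes (26.6 to 28.7%) and 11.5% of those outside (10.5 to 12.6%) were retaining. From above 90% to 95% in Dnmt1+/+ the shares were 8.27% and 2.83%, and from 80% to 90% they were 4.30% and 1.09%. The level in Dnmt1+/+ thus moved with the share as well, and retaining tiles came mostly (2421 of 2807) from tiles above 95%. The number of measured CpGs made little difference outside genes, at 6.84%, 5.68% and 4.96% for 8 to 9, 10 to 13 and 14 to 19 CpGs, whereas inside genes the retaining share was 18.3%, 20.6% and 25.8%. The frequency of CpG in the kilobase relative to its base composition followed the same form. Inside genes the share went from 8.96% of 212 tiles below an observed over expected ratio of 0.2 to 30.6% of 350 tiles above 0.6, and outside genes it lay between 5.21% and 7.55% in all 5 ranges. The members had a median ratio of 0.38, 24 CpGs in the kilobase and 50.8% GC, close to the 0.36, 22 and 49.8% of the other eligible tiles.

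Along a gene, retaining tiles became more frequent toward the 3′ end. They made up 12.5% (10.3 to 14.9%) of eligible tiles in the 10% of the gene's length nearest the start, 18.8% from 40 to 50% of its length and 25.6% (23.6 to 27.6%) in the last 10%. Tiles overlapping coding exons went from 13.8% (10.2 to 18.3%) to 27.6% (25.3 to 30.1%). Tiles without a coding exon went from 11.7% (9.18 to 14.8%) to 20.7% (17.5 to 24.3%). Tiles near each other are not independent, and the shares by position were not split by Dnmt1+/+ level. By gene length the retaining share was 14.6% for genes under 20 kb, 20.4% from 20 to 50 kb, 23.9% from 50 to 100 kb, 24.4% from 100 to 200 kb and 19.15% above 200 kb. Position and length were read over tiles in exactly 1 protein-coding gene, which left out 83 members. Chromosomes ranged from 10.7% of eligible tiles on chromosome 9 to 17.5% on chromosome 18.

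**Figure D3:**
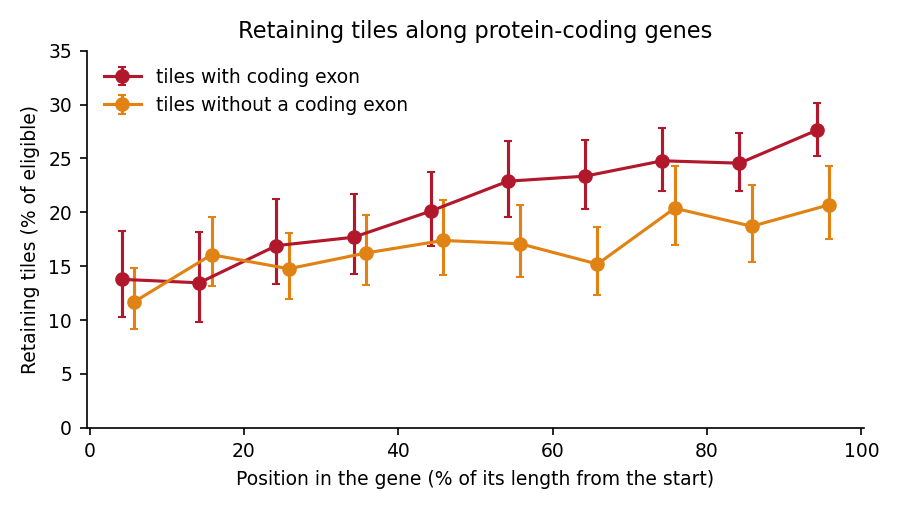
Retaining tiles as a percent of eligible tiles (vertical axis) by position in the gene in steps of 10% of its length (horizontal axis), for tiles with (red) and without (orange) a coding exon, with 95% Wilson intervals as bars. Both lines are higher at the 3′ end, where they reach 27.6% and 20.7%.

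Members outside genes were nearer to genes than the other eligible tiles outside genes were. Of the 509, 98 (19.3%, 16.1 to 22.9%) were within 5 kb of a protein-coding gene and the median distance was 26.1 kb. For the other eligible tiles outside genes these values were 11.6% (10.9 to 12.4%) and 38.9 kb, and for the losing tiles 8.79% (7.65 to 10.1%) and 52.6 kb.

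The 2298 members inside genes were spread over 1638 of the 6274 protein-coding genes with an eligible tile (26.1%). Of these genes 1221 held 1 member, 266 held 2 and 151 held 3 or more. Among the 358 genes with at least 5 eligible tiles, 130 had no retaining tile and 75 had at least 50% of their eligible tiles retaining. Retaining and losing tiles stood in the same gene in 56 of the 358.

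Fat1, an atypical cadherin that acts in cell adhesion and planar polarity, and Zfhx3, a large homeobox and zinc finger transcription factor, held the most members among single genes, at 13 each. The count was higher, 42 of 190 eligible tiles, only in Gm20388, a predicted gene model of 4435 kb on chromosome 8 that spans many other genes (Gse1 and Fbxo31 among them) and is better read as a region than as a gene. In Fat1, 13 of 14 eligible tiles were retaining. Their Dnmt1-/- medians ran from 67.9% to 84.7%, and their other CpGs pooled between 56.7% and 83.9%. The exception, a coding-exon tile 88.3 kb from the gene start, was at 34.2%, while a member 86.9 kb from the start had a median of 84.7% over 1038 calls. In Zfhx3, 13 of 18 eligible tiles were members. The 3 adjacent coding tiles at 78.2 to 79.8 kb from the start were at 79.3%, 87.9% and 82.6%. The 5 tiles below the limit, at 45.8% to 55.6%, were all intronic. Only 5 of the 13 members overlapped a coding exon, and the rest were intronic too, at medians of 65% to 84.6%.

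Cdc42bpb, a kinase downstream of Cdc42, had 10 of 11 eligible tiles retaining, at medians of 68.1% to 86.6%, and the remaining tile, in its UTR, read 62.2%. Over other CpGs its members pooled between 47.9% and 81.1%. Cit, the citron kinase of cytokinesis, had 10 of 13, and the other 3 lay just below the limit at 63.7%, 64.3% and 63.9%. In Spen, an RNA-binding corepressor, 9 of 12 were retaining. The 3 Spen tiles nearest the gene start were not, at 50%, 46.7% and 40.0%, and the 9 members lay from 44.0 to 66.7 kb. A set of 7 of the 9 formed the longest unbroken run of members, chr4:141027001-141034000, all in coding sequence. Its 53 other CpGs pooled to 96.3% in Dnmt1+/+ and 68.3% in Dnmt1-/-, and tile medians were between 69.1% and 84.4%, with single tiles at 50.4% to 79.2% over other CpGs. The next longest run, 4 tiles in Hivep2, a zinc finger transcription factor, at chr10:13848001-13852000, pooled to 98.2% and 68.8%. Most members (2552) had no adjacent member.

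Ece1, the endothelin-converting enzyme, held 7 members of 10, 1110012J17Rik 7 of 11, Cacna1c, the pore subunit of an L-type calcium channel, 7 of 12, and Gse1 7 of 14. Medians in these genes spanned a wide range. Ece1 went from 45.0% to 92.3%, Cacna1c from 23.2% to 84.0% and Gse1 from 6.67% to 86.2%. E2f7, an atypical E2F repressor of the cell cycle, was the only gene with at least 5 eligible tiles in which all were retaining (6 of 6), with medians of 71.2%, 81.0%, 73.3%, 80.4%, 83.3% and 84.3% over all CpGs from the start of the gene to its end, and pooled levels of 61.1%, 73.0%, 72.2%, 85.7%, 68.4% and 77.9% over the other CpGs. The share was 5 of 6 in Maml3, a coactivator of Notch signalling. It was 4 of 5 in Dgkh, a diacylglycerol kinase, Extl3, a glycosyltransferase of heparan sulphate synthesis, Fbxo31, an F-box protein, Kif26b, a kinesin family member, and Xpot, a tRNA exportin. Fbxo31 still held a tile at 11.9%, and Extl3 a tile at 36.1%.

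**Figure D4:**
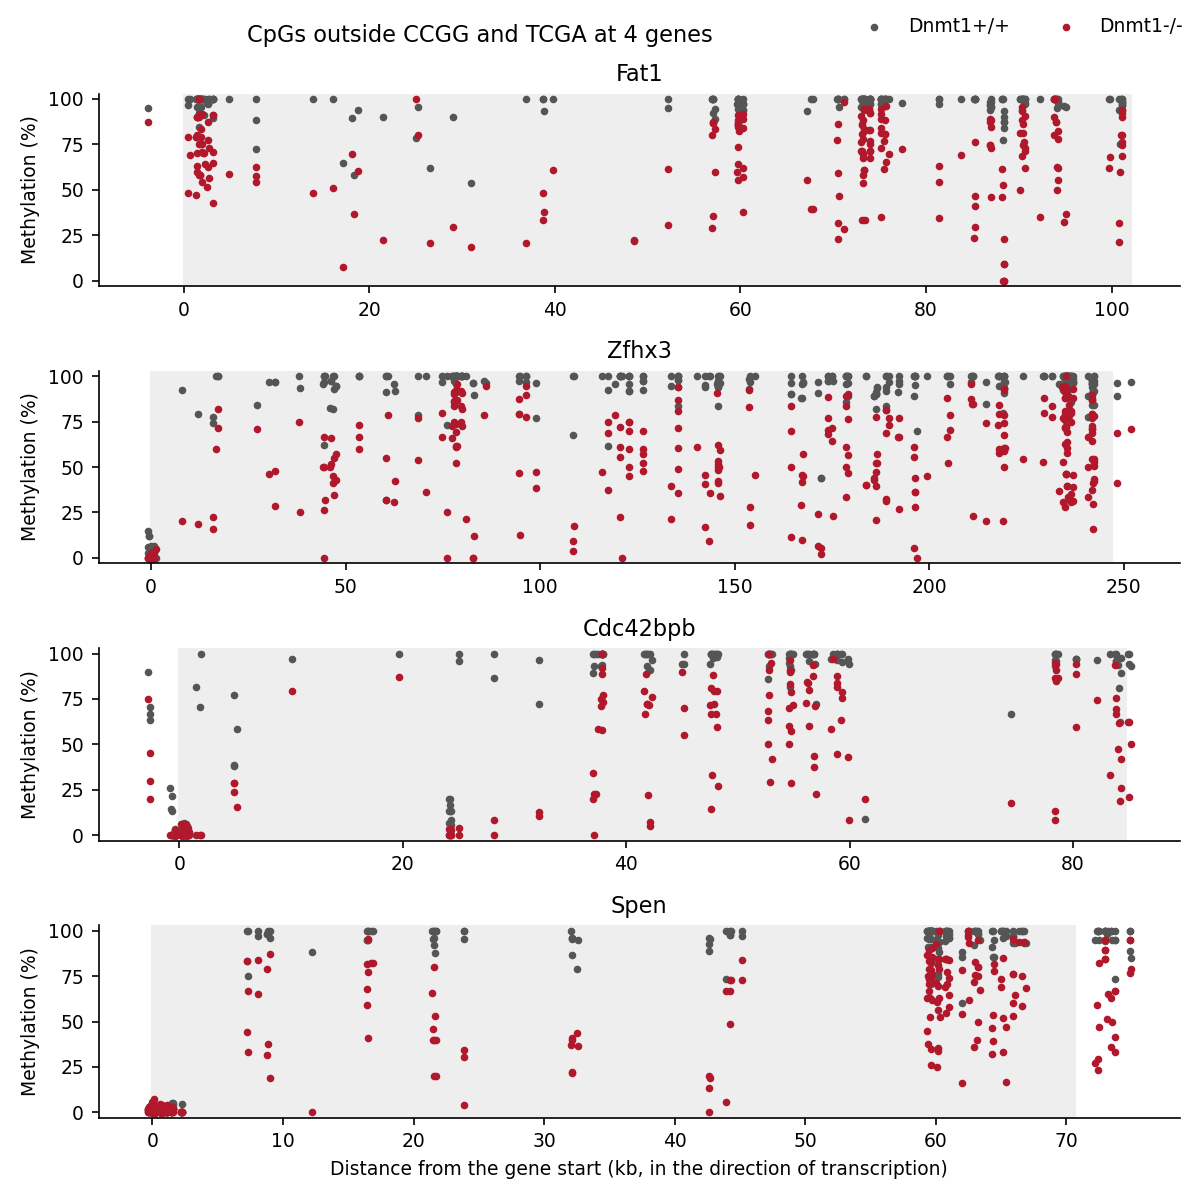
Methylation of each measured CpG outside CCGG and TCGA (percent, vertical axis) against distance from the gene start in kb for Fat1, Zfhx3, Cdc42bpb and Spen, in Dnmt1+/+ (grey) and Dnmt1-/- (red), with the gene's extent shaded. CpGs near 0 kb are close to 0% in both libraries in Zfhx3, Cdc42bpb and Spen, and the Dnmt1-/- values inside the genes scatter widely below the Dnmt1+/+ values.

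The selection did not use CpGs in tiles with fewer than 8 CpGs, so these give values of the same genes that the rule did not read, although they come from the same libraries and some lie close enough to a member to share its fragments. Over such CpGs outside CCGG and TCGA and at 80% or more in Dnmt1+/+, Fat1 averaged 48.2% in Dnmt1-/- (33 CpGs), Zfhx3 53.2% (118), Cdc42bpb 50.6% (23), Cit 54.3% (110), Spen 51.7% (27), E2f7 60.3% (25) and Maml3 49.6% (100). Lower were Gm20388 at 36.2% (1508), Xpot at 41.0% (8), 1110012J17Rik at 45.1% (39) and Cacna1c at 46.1% (117). The rest of the genes named for member count or share lay between 48.6% and 54.1%. Taking the 358 genes with at least 5 eligible tiles, the 75 with at least 50% of these retaining averaged 49.3% over 3726 such CpGs, the 153 with some but under 50% averaged 37.3% over 9843, and the 130 with no retaining tile averaged 21.4% over 5506. The means of single genes with at least 5 such CpGs had quartiles of 45.3%, 49.1% and 53.3% in the first group of genes, 31.5%, 40.4% and 48.8% in the next and 13.9%, 20.5% and 28.0% in the last. The groups' full ranges overlapped, from 24.9 to 64.4%, 7.50 to 59.1% and 3.86 to 53.6%.

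Flanking sequence shared the higher level. All other CpGs within 5 kb of a member and outside retaining tiles averaged 34.0% in Dnmt1-/- (65.3% in Dnmt1+/+), against 14.9% (43.5%) around other eligible tiles and 10.6% (44.6%) around losing tiles. These include CpGs with low methylation in Dnmt1+/+, as the Dnmt1+/+ means show. Kept to CpGs at 80% or more in Dnmt1+/+ in tiles with fewer than 8 CpGs, the Dnmt1-/- means were 47.1% ± 0.58, 30.6% ± 0.28 and 19.4% ± 0.52 (95% interval of the mean over 7989, 32463 and 6422 CpGs, which are not replicates). Around members the mean was 53.1% within 500 bp, 46.7% at 1 to 2 kb, 44.4% at 3 to 5 kb and 38.6% at 10 to 20 kb. Around other eligible tiles it stayed between 30.2% and 30.9%, and around losing tiles it went from 15.3% to 24.0%. The members' flanks were thus above those of the other tiles at each distance read, with a gap that narrowed over 20 kb.

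**Figure D5:**
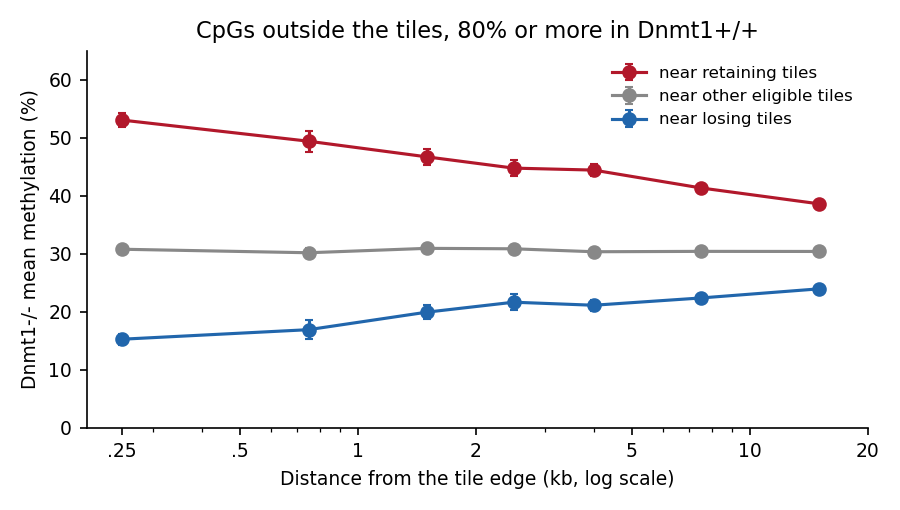
Mean Dnmt1-/- methylation (percent, vertical axis) of CpGs outside the tiles by distance from the tile edge (kb, log scale, points at bin centres), for retaining, other eligible and losing tiles; bars are 95% intervals of the mean over CpGs. The line near retaining tiles runs from 53.1% down to 38.6%, the line near losing tiles from 15.3% up to 24.0%.

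Members also tended to follow each other. Where the next eligible tile was adjacent, it was retaining after 138 of 234 members (59.0%, 52.6 to 65.1%) and after 119 of 836 other tiles (14.2%, 12.0 to 16.8%). At a spacing of 3 to 5 kb the shares were 37.1% and 13.02%, at 21 to 50 kb 24.7% and 12.0%, and at 51 to 100 kb 80 of 421 (15.5 to 23.0%) and 332 of 2788 (10.8 to 13.2%). Adjacent tiles can share restriction fragments and reads, which those farther apart than a fragment cannot.

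Bases next to the CG moved with the level. With both strands folded together, other CpGs of the members in GCGC averaged 75.03% in Dnmt1-/- and those in CCGC 71.2%. ACGC was at 66.4%, GCGA at 65.7%, ACGG at 59.95%, CCGA at 58.7%, ACGA at 55.7% and ACGT at 55.5%. CpGs flanked by C or G on both sides were thus the highest and those flanked by A or T on both sides the lowest, while in Dnmt1+/+ the 8 contexts lay between 93.7% and 96.9%. The other eligible tiles had GCGC at 32.9% and ACGT at 21.8%. The letters GCGC stood in the measured stretch of 58.7% of members (56.9 to 60.6%) and 55.5% of the other eligible tiles (54.8 to 56.3%).

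Gene groups differed in how many of their eligible tiles were members, where 20.1% of eligible tiles inside any protein-coding gene were members and 13.2% were losing. Zinc finger (Zfp) genes had 61 of 166 eligible tiles retaining (36.7%, 29.8 to 44.3%), in 48 of the 98 genes with an eligible tile, and 14 (8.43%, 5.09 to 13.7%) losing. Their highest members included an intronic tile of Zfp407 at 82.4% over its other CpGs and coding tiles of Zfp775 at 81.3% and Zfp521 at 80.5%. DNA methylation enzymes and readers had 11 of 26 (42.3%, 25.5 to 61.1%) and 0 of 26 losing (Wilson interval 0 to 12.9%). Among them were coding tiles of Tet3, an enzyme that oxidises 5-methylcytosine, at 75.04% and 62.7%, and of Mbd2, a methyl-CpG binding protein, at 73.9%. A tile of Uhrf1, the partner that brings Dnmt1 to hemimethylated DNA, was at 63.1%. Tet3 alone held 4 of the 11 members, out of 4 eligible tiles. The list also counted Ehmt2, a histone methyltransferase, with a tile at 60.8%. Polycomb and chromatin regulators had 11 of 53 (20.8%, 12.0 to 33.5%), with Chd7, a chromatin remodeller, at 89.2% and 76.9% in coding tiles, and Arid1b at 69.7%.

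Among the cell adhesion genes, atypical cadherins had 14 of 34 (41.2%, 26.4 to 57.8%), but 13 of these 14 were in Fat1, and 7 of the 34 were losing (20.6%, 10.3 to 36.8%). Losing tiles were 4 of 53 in the Polycomb and chromatin regulators (7.55%), 7 of 80 in the collagens (8.75%), 1 of 9 in the imprinted genes and 0 of 7 in the olfactory receptors. The protocadherins had 4 of 39 retaining (10.3%, 4.06 to 23.6%) and 20 of 39 losing (51.3%, 36.2 to 66.1%), with members in Pcdhgc5 and Pcdh1 at 63.5% to 73.8%. Collagens, abundant products of fibroblasts, had 10 of 80 (12.5%, 6.93 to 21.5%), such as Col6a2 at 75.2%, Col7a1 at 72.8% and 64.3%, Col27a1 at 64.7% and Col6a3 at 61.2%. Germline genes had 1 of 33 (3.03%, 0.54 to 15.3%), in Rpl10l at 61.1%, and 7 losing (21.2%, 10.7 to 37.8%). Imprinted genes had 1 of 9, in Ddc at 75.9%, vomeronasal receptors 1 of 8, in Vmn2r87 at 72.7%, with 5 of 8 losing (62.5%, 30.6 to 86.3%), and olfactory receptors 0 of 7 (Wilson interval 0 to 35.4%). Hox genes had no eligible tile. Tiles of a gene are not independent of each other, and for lists under 50 tiles the intervals are wide.

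Promoter methylation was read at marker genes of cell types, and expression was not used here. Promoters of the mesenchymal genes Vim (2.87% in Dnmt1+/+ and 0.46% in Dnmt1-/-), Fn1 (0.62% and 0.59%) and Pdgfrb (0.90% and 0%, 3 CpGs) were unmethylated over their other CpGs. Those of Col1a1 and Col1a2 were at 32.9% and 34.0% in Dnmt1+/+ and 2.23% and 7.42% in Dnmt1-/-. Promoters of Cdh1 (15.2% and 8.94%) and Epcam (29.1% and 12.4%), epithelial genes, and Pecam1, an endothelial gene (94.3% and 30.4%, 2 CpGs), were read as well, while Col3a1, Ptprc and Cdh5 had no measured CpG outside CCGG and TCGA. In Dnmt1+/+ Cdh1 and Epcam lay below Col1a1 and Col1a2, so these values do not identify the cell type. Promoter methylation is no measure of expression, and the part of other cell types in the members was not tested.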

How the data were processed

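DNA of Dnmt1+/+ and Dnmt1-/- MEFs was profiled by extended-coverage RRBS, with 1 library per genotype label. A sequencing provider carried out quality control and mapping; the submitters' processing notes name Bismark and mm9, and the version, enzymes and conversion rate are not given in the sources used here. The deposited depth is a count of calls per CpG, and the authors left out CpGs with fewer than 10 calls in either library. The authors' percent is methylated calls over all calls. The table held 1790826 CpGs, all on a CG of NCBIM37, with median depths of 29 and 30 and 74636195 and 78401157 calls. Percent times depth was whole within 0.01 calls at every CpG in both libraries.

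CpGs were put in 1 kb tiles, and the limits above were applied in Python 3.11.15 (pandas 2.3.3, numpy 2.4.6, scipy 1.17.1). The code was also run on simulated calls. Planted tiles there lay far above the limit and the rest far below it, so the run says nothing about values near the limit. Gene positions came from GENCODE vM1, on the same build, and sequence from its FASTA (pysam 0.24.0). Coordinates are 1-based. A tile spans its measured CpGs when overlap with genes is read. Flanks reached 5 kb, and 20 kb where means were read by distance. No test was run, because the members were selected on both libraries and there were no replicates.

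The tiles, limits and gene lists were chosen with earlier results of these data known. Named were the 10 members with the highest and 3 with the lowest Dnmt1-/- pooled methylation over at least 5 other CpGs, 3 on each side of the limit, the 10 protein-coding genes with the most members, 5 genes (ties kept) with at least 5 eligible tiles and the largest retaining share, the longest run, and up to 5 members of each list. The result for 1 listed gene is left out here. The runner-up run, the repeat letters and the per-gene sparse CpGs were chosen after their values were seen. Alternatives covered the CpGs used, depth, summary, tile borders and limits. Figures used matplotlib 3.10.9.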

Additional observations from a re-analysis of the deposited data

Results flagged for a closer look

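Chromosome X was outside the selection. With the same limits, 20 of its 437 eligible tiles were retaining, which is 4.58% (95% Wilson interval 2.98 to 6.96%). This is below the 10.7% of the lowest autosome, chromosome 9, without matching for gene position or Dnmt1+/+ level. It is above the floor of 3 tiles in 437 (0.686%), which is a chosen setting and not a noise level. It was flagged because it passed that floor in data that no comparison in the report used.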

How the results depend on the processing

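No paired analysis was possible because there was 1 library per genotype. The number of retaining tiles was 1760 over other CpGs alone, 1514 at a depth of at least 20 in both libraries (8688 tiles were then eligible) and 1797 with a Dnmt1-/- limit of 70%. It was within 1.5 times of 2807 under the other 6 alternatives, from 1904 with the mean of CpGs to 4087 with a limit of 60%.

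The Dnmt1-/- level at other CpGs (65.6%) became 69.1% over other CpGs alone, 66.6% at the higher depth, 69.8% with the mean, 69.6% with pooled calls, 69.1% with a limit of 70%, 62.1% with a limit of 60% and 65.4% without the deepest 1% of CpGs. The share overlapping a coding exon (51.5%) became 53.8%, 60.4%, 55.1% and 54.0% under the first 4 of these and 48.9% with a limit of 60%. The share in a protein-coding gene (81.9%), whose alternatives were added after seeing the data, became 85.2% at the higher depth, 84.6% with the mean, 83.7% with pooled calls and 79.99% with a limit of 60%, and was 81.5% without Gm20388. The mean near members (34.0%) became 36.3% over other CpGs alone, 32.0% at the higher depth, 36.9% with the mean, 36.2% with pooled calls, 31.7% with borders moved by 500 bp, 37.0% with a limit of 70%, 30.7% with a limit of 60%, 43.7% for neighbours up to 2 kb and 47.1% for sparse CpGs at 80% or more in Dnmt1+/+, an alternative added after seeing the data. The cause of these shifts was not tested beyond what each setting removes. In all 30 recomputed values of the coding-exon share, the gene share and the mean near members, the retaining tiles stood above the other eligible tiles of the same setting; for the level at other CpGs the limit itself fixes that order. Depth limits the precision of single tiles, at a median of 341 and 354 calls a member, and with 1 library per genotype no setting measures biological spread.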
